A study of Mus musculus with 59 samples.

Results

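The 4 brainstem libraries of wild-type mice, from 59 libraries in all, were set against the 4 wild-type libraries of each of 4 other brain regions, namely cerebellum, hippocampus, striatum and cortex. All 20 libraries held polyA RNA of whole dissected tissue from, by their labels, the same 4 C57BL/6 mice at 10 weeks of age. By those labels each mouse gave 1 library per region, which the sex-linked genes of 1 cortical library put in doubt. The wild-type mice were the controls of a study of spinocerebellar ataxia type 1, in which the other libraries came from mice with an expanded *Atxn1* allele (*Atxn1* 154Q/2Q) or with that allele carrying a pair of further substitutions (*Atxn1* 154Q[V591A;S602D]/2Q). Here those mice served only as a separate look at the regional differences. A gene was called regional when the quasi-likelihood test of edgeR, its p-values adjusted by Benjamini-Hochberg over all 22200 genes tested, put the brainstem on the same side of all 4 other regions at an adjusted p under 0.05. By that rule 2619 genes were higher and 1919 were lower in the brainstem. Levels are CPM (gene counts per 1e6 counts, scaled to the library's total after TMM normalisation).

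The brainstem, made up of midbrain, pons and medulla, joins the forebrain to the spinal cord and holds the motor and sensory nuclei of most cranial nerves, the respiratory and autonomic centres, and the reticular formation. It is known for neurons that few other brain regions hold: serotonin neurons of the raphe, noradrenaline neurons of the locus coeruleus, cholinergic motor neurons, and inhibitory neurons that release glycine in addition to or in place of GABA. In the embryo the hindbrain is patterned by Hox genes, whose order along the chromosome follows their order along the body axis, and by families of homeodomain factors that set which transmitter a neuron will use. Labels do not say which levels of the brainstem were dissected. In bulk tissue, fewer cells of a type and less RNA per cell cannot be told apart.

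The 2 markers of the tissue were present. *Slc6a5*, the neuronal glycine transporter GlyT2 (ENSMUSG00000039728, GRCm38 chr7:49910146-49963856, plus strand), stood at 574, 607, 584 and 546 CPM in the brainstem, where values of 4 libraries are listed here and throughout in the order of mice WT-70, then WT-77, then WT-220, then WT-221. The cerebellum, whose Golgi cells also use glycine, had 38.3, 36.9, 47.0 and 48.1 CPM. None of the 12 libraries of the other 3 regions passed 1.31 CPM. *Hoxb5*, a homeobox gene of the hindbrain and spinal cord (ENSMUSG00000038700, GRCm38 chr11:96303336-96306121, plus strand), stood at 34.1, 37.7, 36.4 and 34.8 CPM in the brainstem, against a highest value of 0.178 CPM in the 16 other libraries. Neither gene's groups overlapped.

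Depth and a few libraries bear on the comparisons. The brainstem libraries held 75.4 to 112 M counted read pairs (M, 1e6), the cerebellar and hippocampal ones 64.4 to 106 M, and the striatal and cortical ones 33.0 to 54.7 M. The share of pairs counted on the first strand was 49.0 to 49.7% in the first 3 regions and 50.1% in all 8 striatal and cortical libraries, so depth and this share go with the region and cannot be told apart from it. Choroid plexus content varied: *Ttr*, its main transcript, stood at 30.8, 19.7, 2774 and 2495 CPM in the brainstem, and none of the 13 genes of that list was regional. In the striatum the library of mouse WT-220 stood apart, with a summed level of 12 striatal projection neuron markers of 8372 CPM against 2587 to 3381 CPM in the other 3. Markers of cortical and hippocampal excitatory neurons summed to 4557 CPM in that library and to 7352 to 8253 CPM in the other 3 striatal libraries, close to the 7263 to 9399 CPM of the cortex. One cortical library, that of mouse WT-221, went against the other 19, with *Xist* at 473 CPM and the Y-linked *Ddx3y* at 0.903 CPM, where the others had *Xist* at no more than 5.90 CPM and *Ddx3y* at no less than 62.2 CPM. The libraries of other regions labelled WT-221 were among those 19, so it is in doubt that this cortex came from the same mouse. Without the striatal library of mouse WT-220 the rule called 2882 genes higher and 2040 lower, and without the cortical library of mouse WT-221 it called 2744 and 1679.

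To show the sequence from which leading members are transcribed, 4 promoters are given, each from 250 bases before to 50 bases after a RefSeq start (GRCm38.p6). They belong to the glycine transporter *Slc6a5* (chr7:49910049-49910348, plus strand, the first of 2 RefSeq starts), to the brain tryptophan hydroxylase *Tph2* (chr10:115184973-115185272, minus strand) and the serotonin transporter *Slc6a4* (chr11:76998347-76998646, plus strand), which serve the same neurons, and to *Hoxa5* (chr6:52204538-52204837, minus strand). Capitals mark matches on either strand to TGATNNAT, the form of site that Hox proteins share with Pbx partners. The homeodomain core TAATTA and the ETS core CCGGAA were also searched, and a base could belong to more than 1 match.
Slc6a5: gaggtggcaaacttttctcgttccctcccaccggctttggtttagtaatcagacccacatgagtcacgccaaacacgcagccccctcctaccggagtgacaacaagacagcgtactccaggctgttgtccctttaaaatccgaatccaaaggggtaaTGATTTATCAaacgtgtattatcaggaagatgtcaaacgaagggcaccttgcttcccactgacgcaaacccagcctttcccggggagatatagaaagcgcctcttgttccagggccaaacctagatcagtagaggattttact
Tph2: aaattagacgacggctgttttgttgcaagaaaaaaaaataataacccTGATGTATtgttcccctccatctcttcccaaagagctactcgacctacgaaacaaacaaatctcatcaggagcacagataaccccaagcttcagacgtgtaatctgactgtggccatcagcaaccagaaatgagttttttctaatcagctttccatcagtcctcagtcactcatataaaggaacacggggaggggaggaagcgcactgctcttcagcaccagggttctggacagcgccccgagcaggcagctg
Slc6a4: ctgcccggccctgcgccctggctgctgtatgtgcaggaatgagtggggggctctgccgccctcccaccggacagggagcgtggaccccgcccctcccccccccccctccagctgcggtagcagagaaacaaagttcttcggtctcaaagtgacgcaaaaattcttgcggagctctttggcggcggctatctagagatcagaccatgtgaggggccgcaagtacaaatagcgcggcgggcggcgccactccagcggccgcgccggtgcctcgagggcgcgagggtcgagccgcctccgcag
Hoxa5: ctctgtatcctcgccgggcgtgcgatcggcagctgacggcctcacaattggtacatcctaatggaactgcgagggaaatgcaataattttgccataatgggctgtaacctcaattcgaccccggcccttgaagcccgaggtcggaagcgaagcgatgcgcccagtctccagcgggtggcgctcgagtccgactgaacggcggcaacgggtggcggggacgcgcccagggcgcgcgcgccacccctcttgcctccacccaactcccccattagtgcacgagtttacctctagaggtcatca
The *Slc6a5* window held 2 overlapping matches to TGATNNAT, 1 on each strand, starting 93 bases before the start site, and the *Tph2* window held 1 match, 203 bases before it. The *Slc6a4* and *Hoxa5* windows held none, and none of the 4 windows held TAATTA or CCGGAA. Among 27025 genes with a promoter in the table, 10.1% had at least 1 match to TGATNNAT, 6.12% to TAATTA and 16.7% to CCGGAA. Among the 14171 of them that were tested here the shares were 6.03%, 4.05% and 25.6%. The windows also differed in base composition: those of *Slc6a4* and *Hoxa5* held 28 and 29 CpG dinucleotides, and those of *Slc6a5* and *Tph2* held 12 and 9. *Hoxb5* and *Glra1* have no entry.

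Most genes differed between the brainstem and any single region. Against the cerebellum 65.4% of the genes tested were called, against the hippocampus 60.7%, against the striatum 66.1% and against the cortex 65.1%. The 4 contrasts share the 4 brainstem libraries. Genes higher than in all 4 other regions made up 11.8% of those tested, and genes lower than in all 4 made up 8.64%. With a difference of at least 2-fold in each contrast these became 840 genes (3.78%) and 270 genes (1.22%). The higher genes were further from the other regions than the lower ones: the smallest of a gene's 4 log2 differences had a median of 0.67 for the higher and 0.43 for the lower genes, and it reached 5 for 63 higher genes and for 0 lower genes. The region nearest to the brainstem was the cerebellum for 40.6% of the higher and 39.1% of the lower genes. In 10.6% of all genes tested the 4 brainstem libraries lay above the 16 others, and in 7.56% they lay below. Of the 2619 higher genes, 2236 had no overlap of libraries, and of the 1919 lower genes, 1552 had none. Among the higher genes 81.6% were protein-coding, against 90.3% of the lower genes and 73.2% of all genes tested.

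Of the 671 tested genes in the lists of transcription factors, channels, receptors and transmitter genes, 177 (26.4%) were higher and 53 (7.90%) lower than in all 4 other regions. Transmitter genes had the largest share of higher members, 41 of 106 (38.7%), ahead of transcription factors with 63 of 232 (27.2%), receptors with 39 of 157 (24.8%) and channels with 40 of 187 (21.4%). Lower members made up 6.60%, 9.05%, 7.64% and 7.49% in the same order. These shares are descriptions, because some members, the 20 Hox genes among them, passed the filter through their brainstem level and had to differ. The median log2 difference of the transmitter genes was above 0 in every contrast, from 0.58 against the striatum to 1.51 against the cerebellum, while the median over all genes lay between -0.04 and 0.05. For the channels it was 0.68 against the cerebellum and between -0.08 and 0.03 against the other 3 regions.

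**Figure D1:**
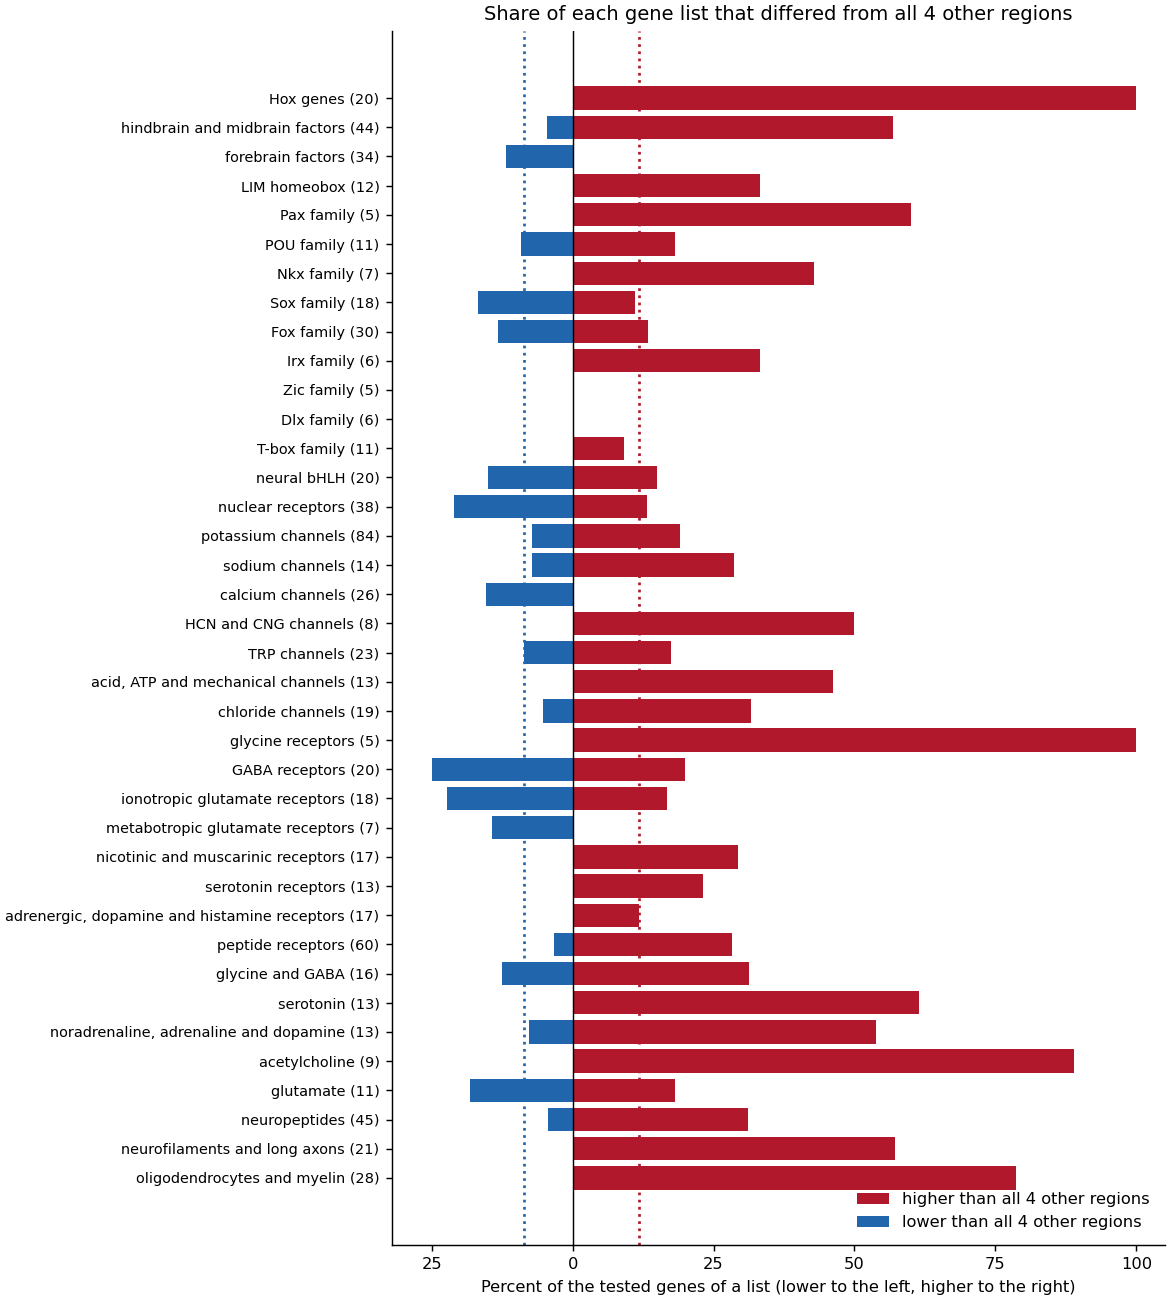
Percent of the tested genes of each list of factors, channels, receptors, transmitters, axons and myelin that were higher (bars to the right) or lower (bars to the left) in the wild-type brainstem than in all 4 other regions, with the number tested in parentheses and lists under 5 tested genes left out. Dotted lines mark the 11.8% and 8.64% of all 22200 genes. Glycine receptors, acetylcholine genes and myelin genes extend furthest to the right beside the Hox genes, and GABA receptors, at 25%, furthest to the left among the lists drawn.

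Hox RNA was found almost entirely in the brainstem. The 39 Hox genes summed to 204 to 310.0 CPM in its 4 libraries and to no more than 2.10 CPM in any of the 16 others. Of the 39 Hox genes 20 had enough counts to be tested, and each of those was higher than in all 4 regions. They passed the filter through their brainstem level, so the count describes where Hox RNA is found and is no test of the family. The other 19 included 9 with 0 counts in all 20 libraries, among them *Hoxd4*, whose span lies inside that of *Hoxd3*. Several Hox genes were among the 10 genes furthest from the other regions, of those with at least 5 CPM. *Hoxa4* stood at 10.67, 10.73, 10.75 and 9.87 CPM and at 0.0439 CPM or less in the other libraries, with a log2 difference from the cerebellum of 8.64 ± 0.22 (SE) and no count at all in the striatum or cortex, which makes it at least 547-fold and 568-fold higher than there (against 3 counts per region). *Hoxb3* stood at 10.97, 11.7, 11.3 and 11.6 CPM against 0.0532 CPM or less, and its log2 difference from the cerebellum was 8.59 ± 0.21. The least of the 4 differences of *Hoxb5* was 8.52 ± 0.24, also against the cerebellum (largest adjusted p over the 4 contrasts 1.95e-16). *Hoxa6* had 1 count in the 16 other libraries together and 1088 in the brainstem. Pairs that overlapped more than one annotated gene were counted for none, and *Hoxb5*, *Hoxb3* and the Hoxa genes overlap antisense or host transcripts on the genome, so their counts are those of the stretches they do not share.

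The Hox genes also differed among the 4 brainstem libraries, and the spread was in the later paralog groups, the number that gives their position in the cluster. Groups 2, 3 and 4 were even: group 3 summed to 21.98, 22.04, 21.8 and 22.3 CPM, a coefficient of variation of 0.94%, and group 4 to 59.8, 58.5, 60.7 and 56.6 CPM. In groups 6 to 9 the library of mouse WT-77 was the highest and that of mouse WT-70 the lowest of the 4. Group 6 summed to 15.3, 33.8, 20.5 and 19.8 CPM, group 7 to 3.19, 16.1, 6.40 and 5.38 CPM, and group 8 to 11.5, 62.6, 21.7 and 21.0 CPM. In mouse WT-77 group 8 was 3.47 times the mean of the other 3 libraries, and group 9, of which no gene passed the filter, was at 2.57 CPM against 0.044 to 0.293 CPM. *Hoxb8*, the most abundant of group 8 and chosen after its values were seen, stood at 10.8, 56.4, 20.8 and 20.5 CPM. Hox genes of later groups specify more caudal levels, from the lower medulla into the spinal cord. Among the 2188 higher genes with at least 1 CPM in the brainstem the median coefficient of variation was 5.23% and genes that passed 50% included *Hoxd8*, *Hoxa7*, *Hoxb8*, *Hoxb7* and *Hoxa6*. The brainstem libraries of the mice with an expanded *Atxn1* allele had a like range: the ratio of group 8 to group 4 counts ran from 0.192 to 1.07 in the 4 wild-type libraries, from 0.208 to 1.04 in 4 *Atxn1* 154Q/2Q libraries and from 0.189 to 0.757 in 3 *Atxn1* 154Q[V591A;S602D]/2Q libraries, while that of group 3 stayed between 0.311 and 0.409 in all 11.

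**Figure D2:**
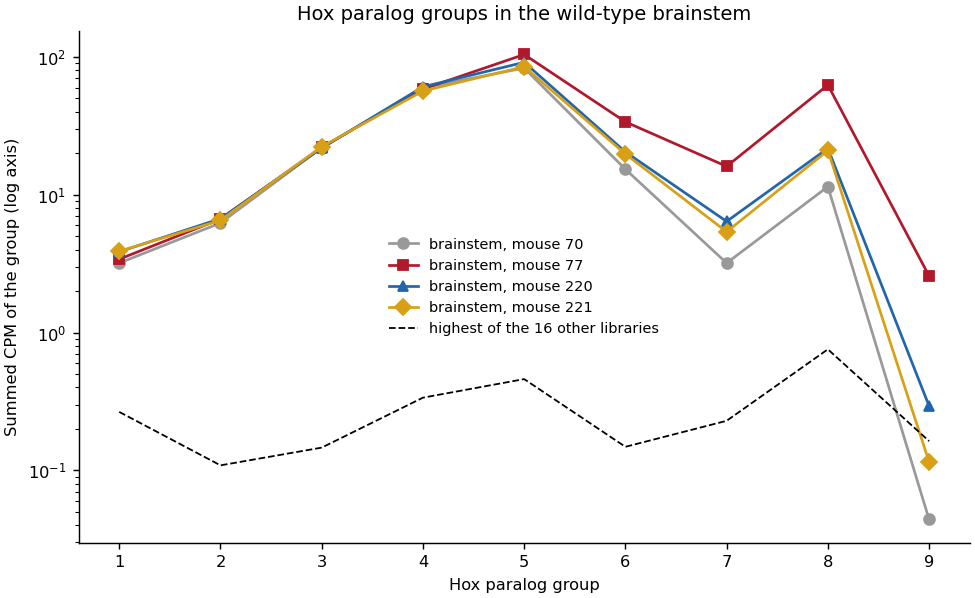
Summed CPM (log axis) of the Hox genes of paralog groups 1 to 9 in each of the 4 wild-type brainstem libraries, with the highest of the 16 libraries of other regions as a dashed line. The 4 lines run close together up to group 4, and from group 6 to group 9 the line of mouse WT-77 runs above and that of mouse WT-70 below the others, with 62.6 and 11.5 CPM in group 8.

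Outside the Hox clusters, 25 of 44 tested factors of the hindbrain and midbrain (56.8%) were higher and 2 (4.55%) lower than in all 4 regions. Of all genes 11.8% were higher and 8.64% lower. Several of the 44 were near 0 CPM elsewhere and passed the filter through their brainstem level, so the count is a description of where these factors were found. *Evx1*, a factor of commissural V0 neurons, stood at 2.73 to 3.29 CPM against 0.0593 CPM or less. *Pax8*, which acts with *Pax2* at the midbrain-hindbrain boundary and in inhibitory neurons, stood at 8.39 to 9.59 CPM against 0.197 CPM or less, a smallest log2 difference of 6.43 ± 0.28. *Hmx3* stood at 0.793 to 1.32 CPM against 0.0475 CPM or less. In these genes no brainstem library reached down to the others.

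Several families of homeodomain and related factors contributed a few members each. Some of these members, such as *Tbx20*, were near 0 CPM elsewhere and passed the filter through their brainstem level. The shares given for these families are therefore descriptions. Among LIM homeobox genes 4 of 12 were higher (33.3%, against 11.8% of all genes). They were led by *Lhx4* (5.61 to 6.21 CPM against 0.322 CPM or less), which specifies motor neurons and V2a interneurons with *Lhx3*, and by *Lmx1b* (7.94 to 10.5 CPM against 0.522 CPM or less), which serotonin neurons need. *Pou4f1* (16.2 to 22.7 CPM against 1.55 CPM or less) and *Pou4f2* (2.00 to 2.61 CPM against 0.0869 CPM or less) were the 2 higher members of 11 POU genes (18.2%), of which 1 (9.09%) was lower. *Pou4f1* marks the red nucleus and inferior olive in the brainstem. The highest outside value of *Pou4f1* came from the striatal library of mouse WT-220. *Nkx6-1*, a ventral hindbrain factor, stood at 6.11 to 7.54 CPM against 0.309 CPM or less, with all 4 log2 differences between 5.53 and 5.59. *Gata3* (2.95 to 3.57 CPM) and *Gata2* (6.52 to 7.76 CPM), factors of V2b and of serotonin neurons, were both higher, by log2 differences of at least 4.96 ± 0.25 and 0.67 ± 0.11. *Pax2* and *Irx2* were shared with the cerebellum in part: *Irx2* stood at 17.1 to 20.5 CPM in the brainstem, 7.01 to 9.22 CPM in the cerebellum and at 1.16 CPM or less elsewhere. *Tbx20*, which marks cranial motor neurons, was the 1 higher gene of 11 tested T-box genes (9.09%), at 2.17 to 3.25 CPM against 0.0246 CPM or less. Of 30 Fox genes 4 (13.3%) were higher, led by *Foxd3*, *Foxb1* and *Foxr2*. Another 4 (13.3%) were lower, and both shares were near the 11.8% and 8.64% of all genes. *Otp*, better known from the hypothalamus, stood at 6.23 to 8.02 CPM against 0.134 CPM or less, and was listed here as a hypothalamic marker. The summed level of the 16 hypothalamic and pituitary markers was 12.1 to 14.2 CPM in the brainstem and 3.62 to 8.03 CPM elsewhere. *Otp* made up much of the brainstem sum. It was the 1 higher gene of the 7 tested (14.3%, near the 11.8% of all genes). *Hcrt*, which defines a class of hypothalamic neurons, was at 0.0355 CPM or less in the brainstem.

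Fewer factors were lower than everywhere else. Of 34 forebrain factors 0 were higher and 4 (11.8%) were lower than in all 4 regions, near the 8.64% of all genes, although 26 to 30 were lower than in each of the 3 forebrain regions and 5 were lower than in the cerebellum. *Neurod2*, a bHLH factor of excitatory neurons including cerebellar granule cells, stood at 13.6, 15.6, 12.4 and 14.6 CPM in the brainstem against a lowest value of 39.1 and a median of 133 CPM in the other 16 libraries, a smallest log2 difference of -2.65 ± 0.21. *Mef2c*, *Nr2f1* and *Neurod6*, the other 3, fell by at least 0.94, 0.75 and 0.70 on the log2 scale. The Nr4a receptors, which are activity-regulated orphan nuclear receptors, fell together: *Nr4a3* was at 4.35, 5.35, 4.65 and 7.39 CPM against 23.2 to 124 CPM (median 40.2), *Nr4a2* at 5.74, 5.96, 5.65 and 6.48 CPM against 20.6 to 95.6 CPM (median 49.3), and *Nr4a1* at 9.47 to 10.4 CPM against 22.3 to 226 CPM. They were 3 of the 8 lower genes (21.1%, against 8.64% of all genes) among 38 nuclear receptors. With *Egr4*, the first and last of them were also the 3 lower genes of 15 immediate early genes, 12 to 15 of which were lower than in each single forebrain region. *Nr4a2* is also a factor of midbrain dopamine neurons. The higher nuclear receptors were 5 (13.2%, near the 11.8% of all genes). Among them were *Vdr*, the vitamin D receptor (2.11 to 2.71 CPM against 0.680 CPM or less), and *Esr1*, estrogen receptor alpha (6.73 to 7.55 CPM against 2.71 CPM or less). In the neural bHLH list *Tal1*, a partner of the Gata factors, and *Olig2* led the higher genes, and the call of *Olig2* (log2 difference of at least 0.23 ± 0.09) was lost in 10 of 30 other ways of running the test, including the one with the mouse as a block.

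Both glycine transporters were higher in the brainstem. In their list of 16 glycine and GABA genes 5 (31.2%) were higher and 2 (12.5%) lower, against 11.8% and 8.64% of all genes. Besides *Slc6a5*, whose smallest log2 difference was 3.76 ± 0.21 against the cerebellum (largest adjusted p 2.31e-12), the glial glycine transporter GlyT1, *Slc6a9*, stood at 107, 107, 108 and 107 CPM against 16.5 to 54.0 CPM (median 29.9), a smallest log2 difference of 1.10 ± 0.08. *Gcsh*, the H protein of the glycine cleavage system, was higher (60.2 to 65.7 CPM against 36.4 to 54.4 CPM), whereas *Gldc*, the decarboxylase of the same system, was lower, at 3.998, 5.63, 5.36 and 5.54 CPM against 32.9 to 63.5 CPM (median 41.5). The fall of *Gldc*, at least 2.75 ± 0.10 on the log2 scale, placed it among the 10 genes furthest below the other regions. *Shmt1*, *Shmt2* and *Amt*, which also act on glycine, and *Gphn*, which anchors its receptors, were not regional (largest adjusted p 0.767, 0.171, 0.692 and 0.844).

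GABA genes were mixed. *Slc6a11*, the GABA transporter GAT3 of astrocytes, stood at 594, 604, 575 and 545 CPM against 61.1 to 142 CPM (median 118), at least 4.35 times the mean of any other region by the fitted difference. *Abat*, which breaks GABA down, was at 652 to 742 CPM against 235 to 423 CPM. *Gad1*, one of the enzymes that make GABA, was lower than in all 4 regions, at 280, 288, 254 and 265 CPM against 361 to 717 CPM (median 428). *Gad2*, the other enzyme, was not regional: its 272, 246, 250 and 244 CPM were above the cerebellum, hippocampus and cortex, and against the striatum the log2 difference was 0.24 ± 0.12 (adjusted p 0.0829). Without the striatal library of mouse WT-220, where *Gad2* was at 299.8 CPM, that difference was 0.35 and *Gad2* was called higher than all 4, as it was with the mouse as a block (log2 difference 0.26). *Slc32a1*, the vesicular transporter that loads both GABA and glycine, stood at 132, 125, 122.9 and 118 CPM, above the 38.3 to 115 CPM of the cerebellum, hippocampus and cortex and below the 125 to 259 CPM of the striatum on average. *Slc6a13* (largest adjusted p 0.294) and *Slc12a5* (0.133) were not regional. Per kilobase of exon, *Slc6a5* was at 80.2 CPM in the brainstem, *Slc32a1* at 44.5, *Gad2* at 43.1 and *Gad1* at 35.6, while in the cerebellum *Gad1* was at 87.5 and *Slc6a5* at 5.91.

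**Figure D3:**
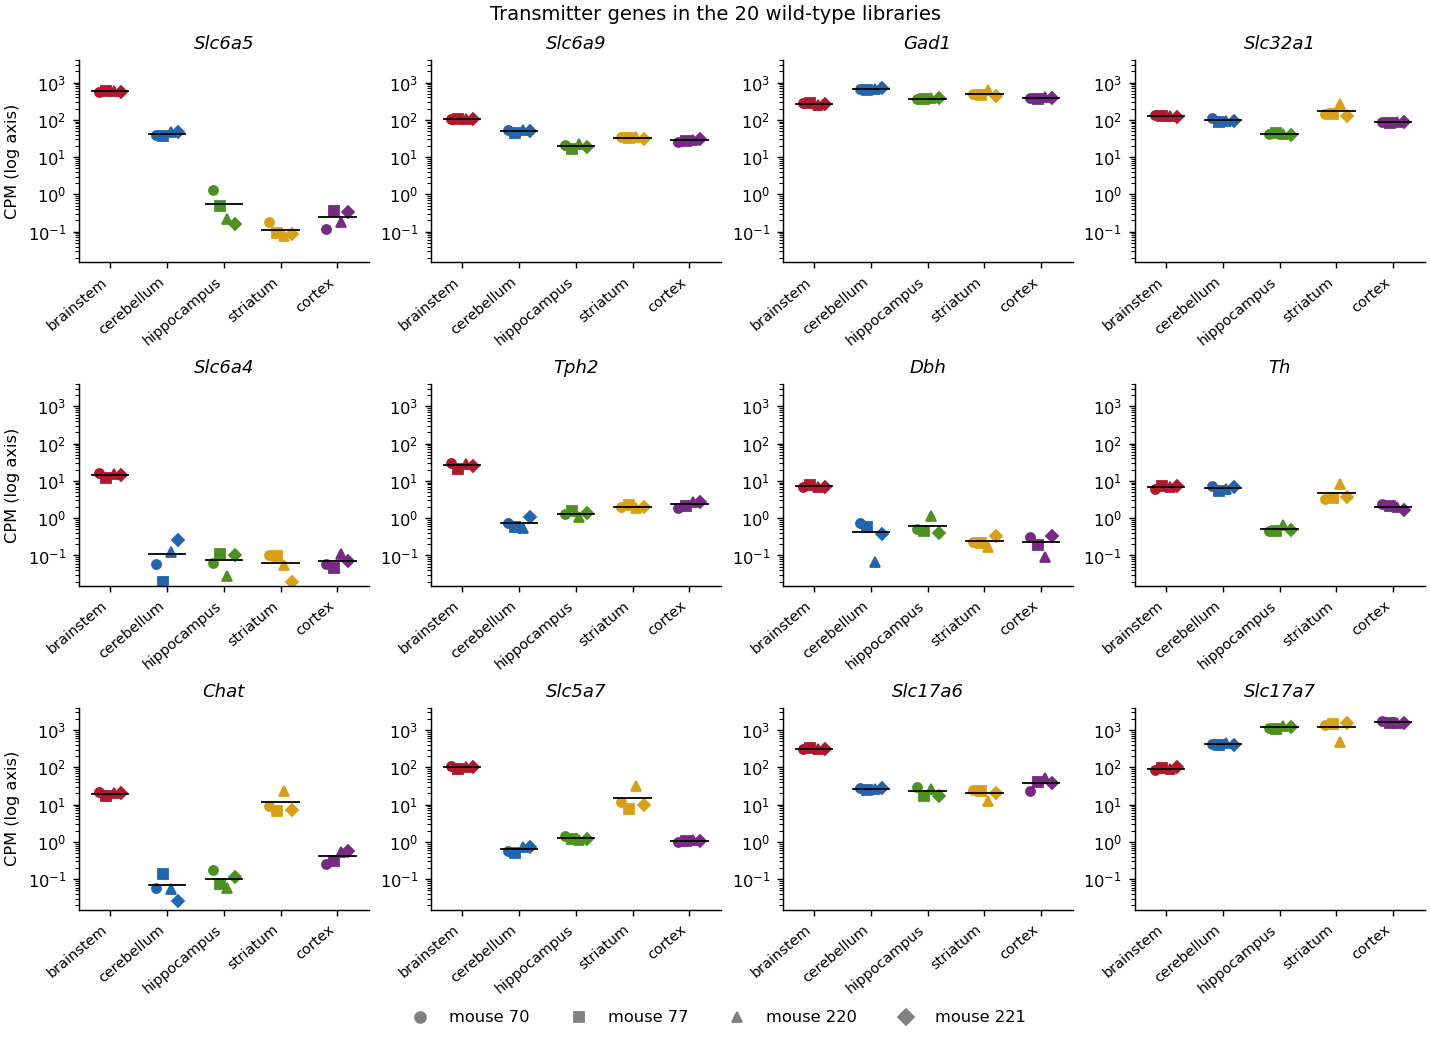
CPM (log axis) of 12 transmitter genes in the 20 wild-type libraries, by region, with a symbol for each mouse and a horizontal line at the mean of 4. Values under 0.02 CPM are drawn at 0.02. *Slc6a5*, *Slc6a4*, *Tph2*, *Dbh*, *Slc5a7* and *Slc17a6* stand above every other library in the brainstem, *Gad1* and *Slc17a7* stand below, and *Chat* and *Th* meet other regions, with *Chat* at 23.3 CPM in the striatum of mouse WT-220.

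Of 13 genes of the serotonin list 8 (61.5%) were higher and 0 lower, against 11.8% and 8.64% of all genes. *Slc6a4*, the serotonin transporter, stood at 16.3, 12.3, 15.7 and 14.8 CPM against a median of 0.0673 and a highest value of 0.266 CPM elsewhere, a smallest log2 difference of 7.07 ± 0.25 (largest adjusted p 1.85e-15). *Tph2*, which makes serotonin in neurons, stood at 30.01, 21.3, 27.9 and 25.4 CPM against 0.560 to 2.73 CPM, a smallest difference of 3.47 ± 0.15. In both genes the library of mouse WT-77, which had the most Hox RNA of the later groups, was the lowest of the 4. In the noradrenaline genes *Dbh* and *Slc6a2* that library was the highest, and a link with the Hox groups was not tested. *Fev*, the factor of serotonin neurons also called Pet-1, was at 1.18 to 1.54 CPM against 0.264 CPM or less. *Ddc* (20.6 to 29.8 CPM against 14.2 CPM or less) and *Gch1* (4.28 to 5.49 CPM against 2.31 CPM or less), which serve serotonin and catecholamine synthesis alike, were higher too. Not regional were *Tph1*, which makes serotonin in the pineal gland and was at 0.151 CPM or less in the brainstem, the degrading enzyme *Maob* (largest adjusted p 0.939), and *En1*, *En2* and the autoreceptor gene *Htr1a*. Both engrailed genes were higher in the cerebellum, *En2* by 4.91 on the log2 scale, and *Htr1a* was higher in the hippocampus.

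Of 13 catecholamine genes 7 (53.8%) were higher and 1 (7.69%), *Nr4a2*, was lower, against 11.8% and 8.64% of all genes. The noradrenaline genes *Dbh*, *Slc6a2* and *Phox2a* were among the higher ones. *Dbh*, which turns dopamine into noradrenaline, stood at 6.96, 7.86, 7.04 and 6.78 CPM against 0.0659 to 1.14 CPM (median 0.334), a smallest log2 difference of 3.58 ± 0.28. *Slc6a2*, the noradrenaline transporter, stood at 4.24, 6.50, 4.86 and 4.21 CPM against 1.61 CPM or less. Its highest outside values were in the cerebellum (0.187 to 1.61 CPM) and in the hippocampus of mouse WT-220 (0.994 CPM, against 0.0502 to 0.0737 CPM in the other 3). *Slc18a2*, the vesicular monoamine transporter, was at 29.8 to 33.2 CPM against 2.85 to 8.24 CPM, a smallest log2 difference of 2.04 ± 0.14. *Th*, the first enzyme of catecholamine synthesis, was at 6.12, 7.42, 6.76 and 7.33 CPM in the brainstem and at 7.51, 5.52, 6.05 and 6.75 CPM in the cerebellum, a log2 difference of 0.10 ± 0.19 (adjusted p 0.648). *Slc6a3*, the dopamine transporter, did not exceed 0.264 CPM in any library, and *Pnmt*, which makes adrenaline, was at 0.151 to 0.198 CPM in the brainstem. *Maoa* (adjusted p up to 0.385) was not regional.

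Acetylcholine genes were higher in 8 of 9 cases (88.9%) and lower in 0, against 11.8% and 8.64% of all genes. Some of them, such as *Mnx1*, passed the filter through their brainstem level, so the count is a description. For the transporters and *Chat* the nearest region was the striatum, which holds cholinergic interneurons. *Slc5a7*, the choline transporter, stood at 108, 91.8, 103 and 99.4 CPM against 12.1, 7.68, 31.8 and 9.84 CPM in the striatum and 1.49 CPM or less in the other 3 regions, a smallest log2 difference of 2.67 ± 0.27. *Slc18a3*, the vesicular acetylcholine transporter, stood at 26.6, 19.9, 24.4 and 23.4 CPM against 4.32, 2.65, 12.9 and 2.75 CPM in the striatum. *Chat*, which makes acetylcholine and whose span holds *Slc18a3*, stood at 21.4, 16.6, 20.5 and 20.1 CPM against 9.16, 6.64, 23.3 and 7.08 CPM in the striatum, where the library of mouse WT-220 was above every brainstem library. Its difference from the striatum, 0.73 ± 0.26 (adjusted p 0.019), grew to 1.36 without that library and was not called when any other striatal library was left out, nor by DESeq2. *Prph*, an intermediate filament of motor and sensory neurons, was at 29.8 to 41.2 CPM against 6.08 CPM or less. The receptor tyrosine kinase *Ret* was at 97.5 to 102 CPM against 33.7 CPM or less, the esterase *Ache* at 167 to 194 CPM against 89.7 CPM or less, and *Bche* at 15.6 to 17.6 CPM against 10.3 CPM or less. *Mnx1*, a motor neuron factor, had 141 counts in the brainstem and 1 in the 16 other libraries. *Isl1*, a motor neuron factor that striatal neurons also use, was higher in the striatum.

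For glutamate the brainstem had the reverse balance of vesicular transporters to the other regions. *Slc17a6*, VGLUT2, stood at 303, 328, 318 and 302 CPM against 12.6 to 53.2 CPM (median 25.4), a smallest log2 difference of 2.99 ± 0.22. *Slc17a7*, VGLUT1, stood at 83.5, 94.1, 91.6 and 102 CPM against 402 to 1758 CPM (median 1257), a smallest difference of -2.20 ± 0.22. Per kilobase of exon *Slc17a6* was at 58.0 and *Slc17a7* at 17.2 CPM in the brainstem, and at 4.96 and 79.1 CPM in the cerebellum. *Slc17a8*, VGLUT3, at 4.88, 4.55, 5.67 and 5.09 CPM, was above the cerebellum and cortex and below the hippocampus and striatum. *Slc1a3*, the glial transporter GLAST, was lower at 236, 284, 227 and 245 CPM against 515 to 1681 CPM (median 656), and *Glul*, glutamine synthetase, was slightly higher (log2 difference of at least 0.29 ± 0.07). Of the other genes of the list, *Slc1a1*, *Slc1a2*, *Slc1a6*, *Slc38a1* and *Slc38a2* were above some regions and below others or missed the threshold. Of the histamine genes, *Hdc* (largest adjusted p 0.405) and *Hnmt* (0.885) were not regional.

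Neuropeptide genes were higher in 14 of 45 cases (31.1%) and lower in 2 (4.44%), against 11.8% and 8.64% of all genes. *Calcb*, one of the calcitonin gene-related peptides of motor and sensory neurons, stood at 3.87, 3.24, 4.65 and 3.96 CPM against 0.0110 to 0.223 CPM, a smallest log2 difference of 4.97 ± 0.20. *Gal*, galanin, was at 5.10 to 7.68 CPM against 0.494 CPM or less. *Gcg*, which encodes the GLP-1 of neurons in the nucleus of the solitary tract, stood at 1.53, 0.737, 1.68 and 1.61 CPM against 0.157 CPM or less, and was lowest in mouse WT-77. *Uts2b* was at 1.94 to 2.48 CPM against 0.296 CPM or less. *Cck* (12.7 to 15.2 CPM against 26.1 to 383 CPM) and *Npy* (4.50 to 6.27 CPM against 6.62 to 80.0 CPM), which cortical interneurons and pyramidal cells use, were lower.

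All 5 glycine receptor genes were higher than in the 4 other regions, against 11.8% of all genes. *Glra1*, the adult alpha subunit (ENSMUSG00000000263, GRCm38 chr11:55514238-55608198, minus strand), led all receptors, at 91.3, 127, 117 and 97.0 CPM against 0.0752 to 1.11 CPM (median 0.283), a smallest log2 difference of 7.01 ± 0.19 (largest adjusted p 9.61e-17). *Glra3* was at 28.1 to 33.9 CPM against 10.7 CPM or less, *Glra4* at 0.980 to 2.07 CPM against 0.284 CPM or less, and *Glra2*, the fetal alpha subunit, at 17.0 to 18.01 CPM against 14.7 CPM or less. *Glrb*, the shared beta subunit, stood at 454 to 488 CPM in the brainstem and was already at 208 to 316 CPM elsewhere. Per kilobase of exon the brainstem had 101.3 CPM of *Glrb*, 44.8 of *Glra1*, 5.54 of *Glra2*, 3.24 of *Glra3* and 0.730 of *Glra4*. In the cortex *Glra2* was the highest alpha subunit, at 3.40, and *Glra1* was at 0.128.

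GABA receptors divided by subunit. *Gabrq*, the theta subunit of monoamine neurons, stood at 21.2, 18.5, 21.4 and 19.2 CPM against 0.154 to 1.23 CPM (median 0.593), a smallest log2 difference of 4.53 ± 0.20. *Gabre*, the epsilon subunit, was at 3.49 to 5.44 CPM against 0.714 CPM or less, *Gabrg1* at 58.2 to 64.1 CPM against 31.3 CPM or less, and *Gabrr2* rose by at least 0.55 on the log2 scale. *Gabrd*, the delta subunit of extrasynaptic receptors, stood at 3.10, 6.15, 2.66 and 5.49 CPM against 22.7 to 200.4 CPM (median 93.4), a smallest difference of -2.54 ± 0.20. *Gabra4* fell by at least 0.73. The granule cell subunit *Gabra6* was at 866 to 1098 CPM in the cerebellum and at 11.7, 27.9, 6.89 and 24.1 CPM in the brainstem. *Gabrd* was highest in the same 2 brainstem libraries, those of mice WT-77 and WT-221, and the part of granule cell RNA in its level was not tested.

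Of 18 ionotropic glutamate receptor genes 3 (16.7%), all NMDA subunits, were higher and 4 (22.2%) lower, against 11.8% and 8.64% of all genes. *Gria2* and *Gria1* fell by at least 0.99 and 0.42 on the log2 scale. *Grin3b* (2.97 to 4.04 CPM against 1.58 CPM or less), *Grin3a* (72.0 to 77.7 CPM against 44.7 CPM or less) and *Grin2d* (25.4 to 30.2 CPM against 16.4 CPM or less) were higher, and *Grin2c*, which cerebellar granule cells use, was lower. *Grin3b* and *Grin2d* were not called with counts of 1 strand. Among 7 metabotropic receptors 0 were higher and 1 was lower (14.3%, against 8.64% of all genes). The lower gene was *Grm2*, at 6.40 to 6.54 CPM against 10.5 to 83.4 CPM.

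Acetylcholine receptors were higher in 5 of 17 cases (29.4%), serotonin receptors in 3 of 13 (23.1%) and adrenergic, dopamine and histamine receptors in 2 of 17 (11.8%). Of all genes 11.8% were higher, the same share as in the last list. In these lists 0 genes were lower, against 8.64% of all genes. *Chrm2*, the muscarinic M2 receptor, was at 75.8 to 77.7 CPM against 22.5 CPM or less, a smallest log2 difference of 2.04 ± 0.12, and the ganglionic subunits *Chrna3* (4.91 to 5.53 CPM against 2.22 CPM or less) and *Chrnb4* (2.07 to 2.83 CPM against 1.85 CPM or less) were higher. The call of *Chrnb4* was lost in 7 of 30 other settings, among them DESeq2, thinning and leaving out the brainstem library of mouse WT-70 or WT-221 or the cerebellar library of mouse WT-70, WT-220 or WT-221. *Htr2c* stood at 137, 132, 158 and 152 CPM against 3.63 to 83.2 CPM (median 32.8). Choroid plexus also makes *Htr2c*. The 2 brainstem libraries with the least *Ttr*, those of mice WT-70 and WT-77, had 137 and 132 CPM. Those of mice WT-220 and WT-221, with the most *Ttr*, had 158 and 152 CPM. The part of choroid plexus in these levels was not tested. *Htr7* was at 25.4 to 27.7 CPM against 16.2 CPM or less. *Adra2a*, the autoreceptor of noradrenaline neurons, was at 39.6 to 42.9 CPM against 24.8 CPM or less, and *Adra1a* at 14.2 to 16.7 CPM against 12.5 CPM or less. *Adra1a* was not called without the brainstem library of mouse WT-221 or the cortical library of mouse WT-77 or WT-220.

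Peptide receptors were higher in 17 of 60 cases (28.3%) and lower in 2 (3.33%), against 11.8% and 8.64% of all genes. *Npy4r*, the receptor for pancreatic polypeptide, stood at 1.22, 1.23, 1.38 and 1.12 CPM against 0.0445 CPM or less, with 445 counts in the brainstem and 13 in the 16 other libraries together. *Nmur2*, a neuromedin U receptor, was at 1.20 to 2.50 CPM against 0.266 CPM or less, and *Calcr*, the calcitonin receptor, at 1.77 to 2.57 CPM against 0.231 CPM or less. *Oprm1*, the mu opioid receptor, was at 5.45 to 7.23 CPM against 0.966 CPM or less, a smallest log2 difference of 3.02 ± 0.18. *Vipr1* was lower at 0.727, 1.15, 0.637 and 0.691 CPM against 4.21 to 41.1 CPM (median 27.0), and *Ramp3*, a partner of the calcitonin receptor, at 1.12, 1.70, 1.67 and 1.29 CPM against 2.41 to 19.4 CPM (median 13.5).

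Of the 40 higher channel genes 16 were at least 2-fold higher in each contrast, and of the 14 lower channel genes 1 was at least 2-fold lower. Potassium channels were higher in 16 and lower in 6 of 84 cases (19.0% and 7.14%, against 11.8% and 8.64% of all genes). *Kcnh8* stood at 3.42, 3.96, 3.09 and 3.25 CPM against 0.121 to 0.696 CPM (median 0.438), a smallest log2 difference of 2.58 ± 0.17, and its relative *Kcnh2*, the ERG channel, at 122.6 to 132 CPM against 49.5 CPM or less. The inward rectifiers *Kcnj14*, at 16.2, 13.6, 15.9 and 13.9 CPM against 0.306 to 2.96 CPM (median 2.21), and *Kcnj10*, the potassium channel of glia, at 808 to 969 CPM against 158 to 310 CPM, were higher by at least 2.54 ± 0.12 and 1.62 ± 0.11. *Kcnmb4*, the neuronal beta subunit of BK channels, was lower at 0.386, 0.337, 0.242 and 0.294 CPM against 0.759 to 3.50 CPM. *Kcnh1*, at 25.2, 29.7, 31.0 and 30.4 CPM against 47.3 to 118 CPM (median 64.3), and *Kcnh3*, at 0.815, 1.29, 0.929 and 0.959 CPM against 1.46 to 246 CPM (median 137), fell by at least 0.97 and 0.93 on the log2 scale. Members of the Kcnh family thus stood on both sides.

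Among the other cation channels, sodium channels were higher in 4 of 14 cases (28.6%, against 11.8% of all genes). These were led by *Scn9a*, the Nav1.7 channel of sensory and autonomic neurons, at 25.5 to 30.2 CPM against 9.40 CPM or less, and by *Scn7a*. *Scn1a* was at 535 to 588 CPM against 316 CPM or less, *Scn2a* was lower at 128 to 141 CPM against 175 to 601 CPM, and the leak channel *Nalcn* rose by at least 0.28. Voltage-gated calcium channel genes were higher in 0 and lower in 4 of 26 cases (15.4%, against 8.64% of all genes). The lower ones were led by *Cacna1e*, *Cacna1d* and *Cacna1i*, which fell by at least 0.80, 0.47 and 0.43. The pacemaker channels *Hcn4* (23.0 to 26.5 CPM against 6.45 CPM or less) and *Hcn2* (348 to 373 CPM against 223 CPM or less) were higher, as was *Cngb1*. Of the channels gated by ATP or pressure, *P2rx5* led all channels with at least 1 CPM, at 12.4, 12.4, 11.7 and 12.1 CPM against 0.475 to 2.52 CPM (median 0.928), a smallest log2 difference of 2.80 ± 0.16. *Piezo2*, the touch and stretch channel, was at 4.11 to 5.10 CPM against 1.94 CPM or less. *Trpm8* and *Trpm2* rose by at least 1.03 and 0.72 and *Trpc6* and *Trpc1* fell by at least 0.88 and 0.61. Of 19 chloride channel genes 6 (31.6%) were higher and 1 (5.26%), *Clcn2*, was lower by at least 0.27, against 11.8% and 8.64% of all genes. The higher ones were led by *Ano4* (56.8 to 62.8 CPM against 26.1 CPM or less) and *Clcn5* (64.5 to 68.0 CPM against 37.0 CPM or less).

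**Figure D4:**
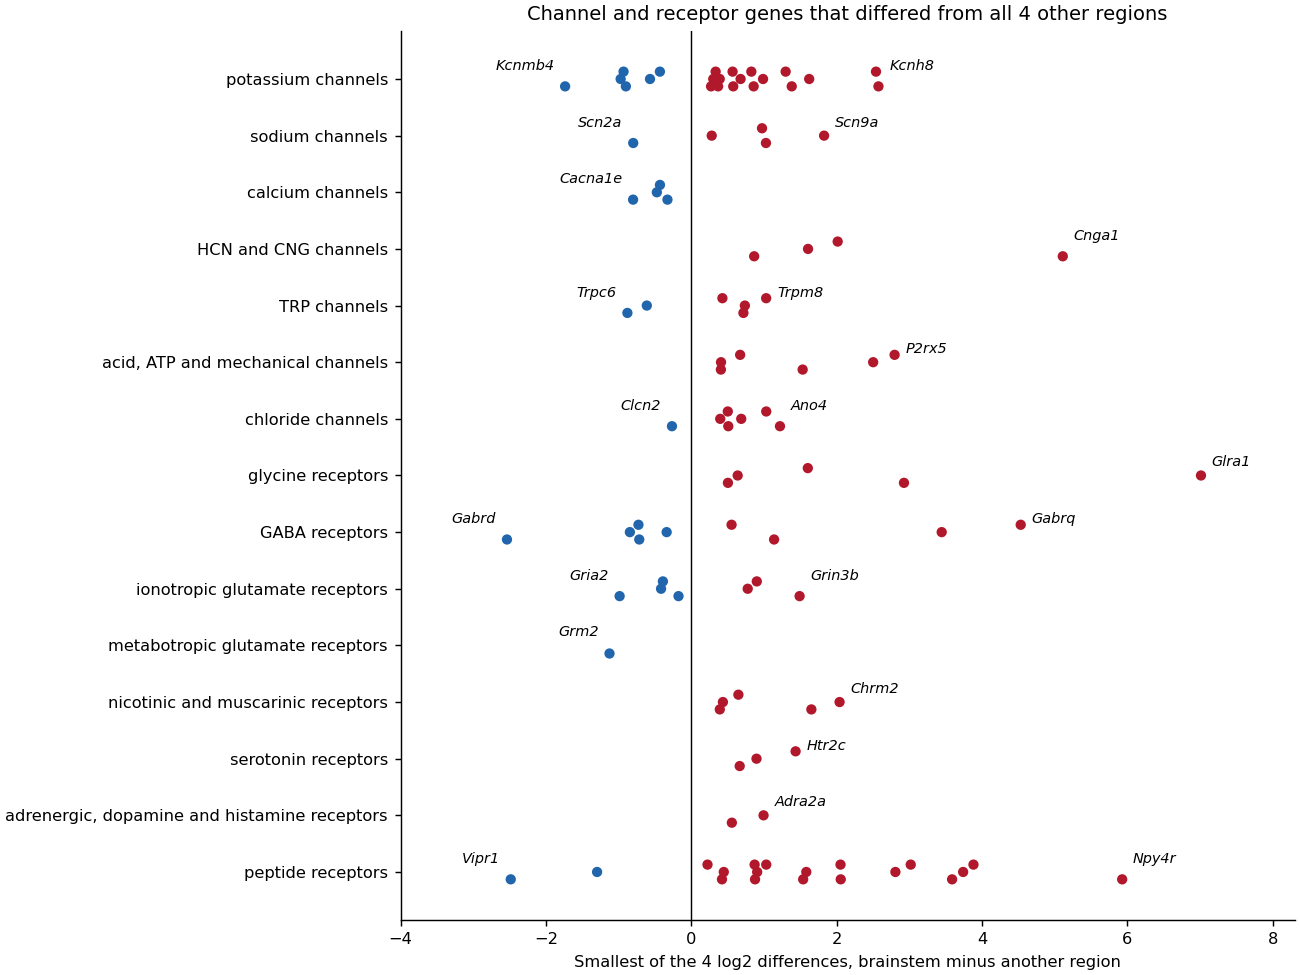
The smallest of the 4 log2 differences (brainstem minus another wild-type region) for each channel and receptor gene called higher (red) or lower (blue) than all 4 other regions, by list. The gene furthest out on each side of a list is named. The glycine receptor list reaches furthest to the right, up to 7.01 for *Glra1*, and the point for *Cnga1* rests on a level under 1 CPM.

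Of 21 neurofilament and long axon genes 12 (57.1%) were higher and 0 lower, against 11.8% and 8.64% of all genes. The higher ones were led by *Sncg*, gamma-synuclein (53.6 to 71.9 CPM against 4.15 CPM or less), *Ahnak2* and *Prph*. The neurofilament subunits *Nefh* (955 to 997 CPM against 61.2 to 162 CPM) and *Nefm* (1872 to 1985 CPM against 222 to 437 CPM) were higher by at least 2.65 ± 0.09 and 2.43 ± 0.09 on the log2 scale. Of 28 oligodendrocyte and myelin genes 22 (78.6%, against 11.8% of all genes) were higher and 0 lower, led by *Klk6*, *Ugt8a*, *Ermn* and *Anln*. Their summed level was 23010 to 26560 CPM in the brainstem, 7220 to 12940 CPM in 15 of the other libraries and 19860 CPM in the striatum of mouse WT-220. Astrocyte genes were higher in 7 of 15 cases (46.7%) and lower in 1 (6.67%), against 11.8% and 8.64% of all genes. Microglial genes were higher than in the cerebellum in 14 of 14 cases and lower than in the striatum in 13, so 0 were regional. Of all 22200 genes 7096 were higher than in the cerebellum and 7330 lower than in the striatum. Of the markers of cerebellar granule cells, striatal projection neurons, ependyma, meninges and choroid plexus 0 were regional in either direction.

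Among the 10 genes furthest below all other regions, *Itpka*, an inositol trisphosphate kinase of dendritic spines, stood at 2.15, 2.71, 1.55 and 1.87 CPM against 51.9 to 283 CPM (median 193), a smallest log2 difference of -4.78 ± 0.15. *Slc8a2*, a sodium-calcium exchanger, was at 23.4 to 25.6 CPM against 140 to 466 CPM. Others were *Asb11*, *Prdm8*, *Egr4*, *Tcap*, *Gldc*, *Mei1* and *Neurod2*. *Mei1* had 5 counts in the brainstem and lay just inside the threshold (largest adjusted p 0.0488), as did *Trpm6* (0.0475), while *Gad2* lay just outside it.

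Mice with an expanded *Atxn1* allele, which the rule did not use, gave the same contrasts in separate animals. In *Atxn1* 154Q/2Q mice 12.9% of the genes tested were higher and 8.21% lower than in all 4 other regions. Of the 2619 higher genes of the wild-type mice 2209 (84.4%) were called higher there, of the 1919 lower genes 1448 (75.5%) were called lower, and 0 were called in the opposite direction. The shares of all genes in mice carrying *Atxn1* 154Q[V591A;S602D]/2Q were 12.8% and 7.57%, and 2263 (86.4%) and 1438 (74.9%) were called again, with 0 in the opposite direction. One hippocampal library, that of *Atxn1* 154Q/2Q mouse 76, held brainstem markers, with *Slc6a5* at 273.5 CPM of its total and *Hoxb5* at 28.6 CPM, against 1.17 CPM or less and 0.200 CPM or less in the other 7 hippocampal libraries of the mutant mice. Without it 2309 higher and 1464 lower genes were called again. Of the 177 higher genes of the 4 classes 153 were called in both kinds of mice and 10 in neither, including *Asic3*, *Best1*, *Cnga1*, *Crh*, *Glra2*, *Htr5b*, *Kcnk15*, *Scn7a* and *Tal1*. Of the 53 lower genes 39 were called in both and 7 in neither, including *Gad1*, *Ramp3* and *Grin2c*. Of the 41 higher transmitter genes 40 were called in both.

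**Figure D5:**
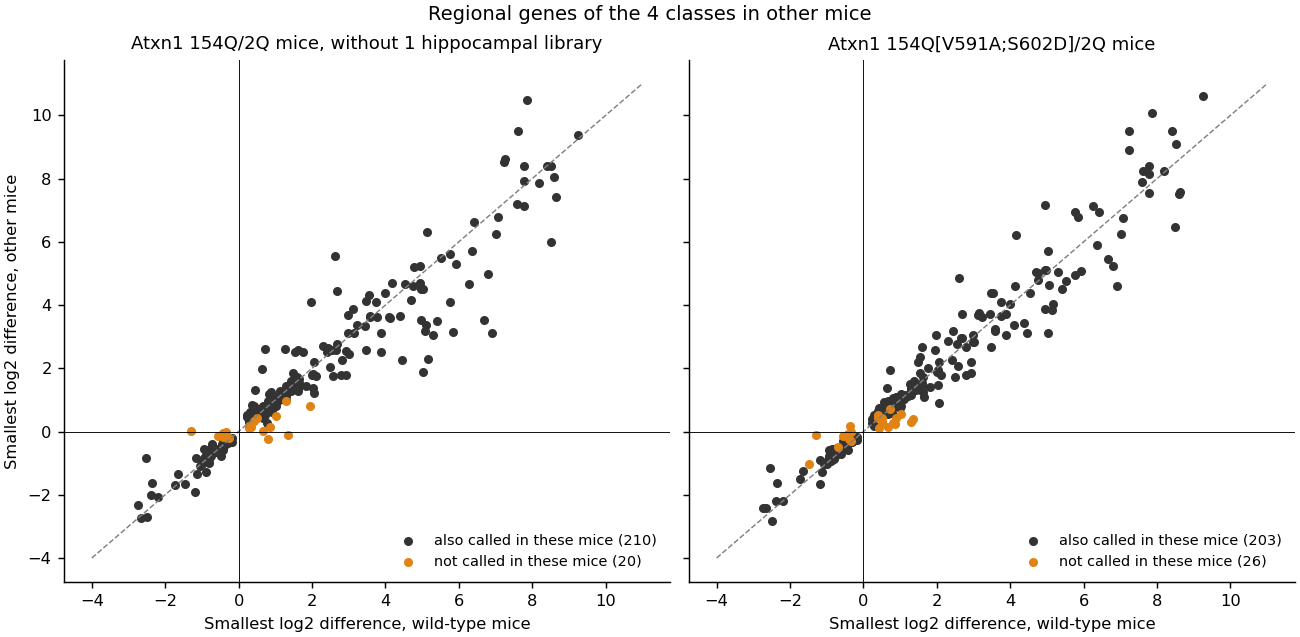
The smallest of the 4 log2 differences (brainstem minus another region) of the 230 regional genes of the 4 classes, in wild-type mice (x axis) and in mice with an expanded *Atxn1* allele (y axis). The left panel leaves out the hippocampal library of mouse 76, the right panel holds the 229 genes tested there, and the dashed line marks equal values. Orange marks the genes not called in the other mice, 20 on the left and 26 on the right.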

How the data were processed

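PolyA RNA of 5 dissected brain regions was sequenced from 12 mice, and the 20 wild-type libraries carry the comparisons described here. Per the labels and the study's methods, the authors used Trimmomatic 0.36 for trimming and STAR 2.7.2d for alignment to GRCm38 (GENCODE M18), and deposited the counts per gene that STAR writes. The unstranded column was used, in which read pairs that overlap more than one gene count for none (4.44 to 5.32% of pairs). STAR's summary lines and a row that names no mouse gene (at most 53 counts per library) were left out. Of 54232 genes 54079 were matched to a symbol.

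Genes were kept with edgeR's filterByExpr (22200 genes), scaled by TMM and fitted with a quasi-likelihood model with region as the only term over the 20 libraries (edgeR 4.0.16, R 4.3.3), and p-values were adjusted by Benjamini-Hochberg within each contrast. Standard errors (SE) are on the log2 scale. CPM per kilobase was used to compare genes. DESeq2 1.42.0 was an alternative, and tables were made with Python 3.11.15. The fit was tested on simulated data. The same fit was made in each kind of mutant mouse. Samples were grouped by their labels, and p-values measure the spread between 4 mice per region.

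Gene lists and members were chosen with earlier results of these data known. In each list up to 4 higher and up to 3 lower genes with at least 1 CPM are named, those furthest from all other regions by the smallest of the 4 differences, along with the genes that make, pack or take up a transmitter, and, over all genes, the 10 furthest in each direction with at least 5 CPM. Genes named outside this rule were chosen after their values were seen. The labels give each mouse 1 library per region, which pairs the libraries by labelled animal. For the cortical library of mouse WT-221 that label is in doubt. After subtracting region means, the deviations of a brainstem library and the same mouse's library of another region correlated from -0.445 to 0.317. The highest correlation with another mouse's library of that region ran from 0.003 to 0.446, so the pairing rests on the labels. The fit with the mouse as a block was made as an alternative. Promoter sequences are from RefSeq (GRCm38.p6). The sequencing depth of each region is given with the results. Some genes that the naming rule selects are not reported here.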

Additional observations from a re-analysis of the deposited data

Results flagged for a closer look

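In 43 genes shown in every library, each region's 4 libraries were checked for one that stood apart from the other 3 by Dixon's criterion, which chance meets in about 1 group of 20. Of 200 groups 19 met it, and 8 of those were in the striatal library of mouse WT-220.

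In that library *Chat* was at 23.3 CPM against 6.64 to 9.16 in the other 3, *Slc18a3* at 12.9 CPM against 2.65 to 4.32, *Slc32a1* at 258.6 CPM against 125 to 145, *Th* at 8.12 CPM against 3.30 to 3.58, *Slc17a8* at 15.7 CPM against 7.87 to 8.51 and *Calcb* at 0.152 CPM against 0.0262 to 0.0316. *Slc17a7* was at 481 CPM against 1396 to 1508 and *Kcnh1* at 49.2 CPM against 95.6 to 104.9. The summed striatal projection neuron markers and excitatory neuron markers of this library, given with the results, moved with these genes. Their part in these values was not tested.

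In the hippocampus of mouse WT-220 the catecholamine genes *Slc6a2* (0.994 CPM against 0.0502 to 0.0737), *Dbh* (1.14 CPM against 0.401 to 0.504) and *Th* (0.653 CPM against 0.442 to 0.477) stood above the other 3 libraries. In the cortex of mouse WT-220 *Kcnj14* was at 2.83 CPM against 2.26 to 2.33 and *Calcb* at 0.223 CPM against 0.0292 to 0.0488. In the hippocampus of mouse WT-70 *Glra1* was at 0.270 CPM against 0.0752 to 0.101. In the cerebellum of mouse WT-70 *Hoxb8* was at 0.667 CPM against 0.0220 to 0.0798 and *Slc32a1* at 115 CPM against 89.3 to 91.0, and in that of mouse WT-77 *Kcnh1* was at 47.3 CPM against 59.2 to 61.0. Within the brainstem *Hoxa4* was at 9.87 CPM in mouse WT-221 against 10.67 to 10.75, and *Gldc* at 3.998 CPM in mouse WT-70 against 5.36 to 5.63.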

How the results depend on the processing

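The counts of genes higher and lower than in all 4 other regions were 2619 and 1919. With DESeq2 they were 2577 and 1846, with counts of 1 strand 2478 and 1912, and with every library thinned to 33.03 M counts 2354 and 1779. Requiring at least 2-fold left 840 and 270 genes. With the mouse as a replicate block, which pairs the libraries by labelled animal, they were 2667 and 1952. The block together with leaving out the cortical library of mouse WT-221 (chosen after seeing the data) gave 2796 and 1700. Leaving out 1 library at a time gave 2517 to 2882 and 1659 to 2040. Of 183 named genes with a call 23 lost it in at least 1 of 30 settings, none reversed in any of the 30, and *Gad2* and *Slc38a2* gained one. *Trpm6* lost it in 18, *Mei1* and *Sox12* in 17 each and *Olig2* in 10. With the block, *Olig2* lost and *Gad2* gained a call, and 0 other named genes changed. Striatal and cortical libraries were the shallowest, which limits genes of low count most in those contrasts, and counts of 0 there allow up to 3 counts per region.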
